A study of Mus musculus with 6 samples.

Results

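Members of the SR and hnRNP families are the RNA-binding proteins that help to decide which splice sites of a pre-mRNA are used. The genes described here were those whose symbol is *Srsf* with a number or *Hnrnp* with a suffix, which gave 31 members, 11 SR genes and 20 hnRNP genes, among the 61880 rows of the deposited table. The table held counts for isolated mammary epithelial cells in 6 pooled samples, 3 of *fat-1* and 3 of wildtype (WT) mice. All mice were pubertal females of the FVB/NJ strain, 6 to 8 weeks old, kept for life on a modified AIN93G diet with 10% fat by weight from safflower oil, a source of *n*-6 polyunsaturated fatty acids (PUFA). The *fat-1* mice carry a roundworm gene for an *n*-3 desaturase, active throughout the body, which makes *n*-3 PUFA from *n*-6 PUFA, and the WT mice lack it. Each sample was a pool of several mice, the transgene is not limited to epithelial cells, and the *p*-values measure only the spread between these pools.

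Library totals ran from 204539059 to 232148824 counts, and levels are given below in CPM, counts in proportion to the normalized library size. The labels call the cells epithelial. The summed level of 9 luminal markers ran from 783 to 3232 CPM in *fat-1* and from 834 to 2710 CPM in WT, and that of 7 basal markers from 156 to 607 CPM and from 149 to 481 CPM. Markers of other cells were present too, and 0 markers of any list were without counts. The summed level of 11 immune markers ran from 1187 to 2677 CPM in *fat-1* and from 1220 to 2742 CPM in WT, and that of 6 fibroblast markers from 1551 to 6065 CPM and from 3332 to 5617 CPM. The fibroblast sum was above the luminal sum in every sample except *fat-1* sample 1. The sums cover different genes and are not divided by length, so this does not rank the cell types by amount.

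SR proteins carry RNA recognition motifs and a tail rich in arginine and serine, which is phosphorylated by the SRPK and CLK kinases. They mostly bind exonic enhancers and recruit the U1 and U2 snRNPs, so that the exon is kept. hnRNP proteins coat nascent RNA, often bind silencers in exons and introns, and act against SR proteins at many exons, although both families can act either way depending on where they bind. Many of these genes regulate themselves through a poison exon or a retained intron, which sends part of their own RNA to nonsense-mediated decay (NMD) or keeps it in the nucleus. In the GENCODE annotation of GRCm38, 9 of the 11 SR members (81.8%) and 10 of the 20 hnRNP members (50%) had an annotated NMD transcript, compared to 23.4% of the 18765 protein-coding genes with counts. A retained-intron transcript was annotated for 72.7% of the SR members, 70.0% of the hnRNP members and 47.3% of all these genes. The median number of annotated transcripts was 7 for SR members, 8 for hnRNP members and 4 for all.

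The way in which reads were placed in rows also matters for these genes, and its relation to the annotated transcripts was not tested. The assembly behind the table groups overlapping transcripts into loci, and a locus can hold a row with the gene's symbol and further rows without it or with another symbol. Of the 31 members, 6 were alone in their locus (*Srsf3*, *Srsf6*, *Srsf12*, *Hnrnpa0*, *Hnrnph2* and *Hnrnpll*), while 25 shared it with other rows. Over all rows, 10.97% of loci had more than 1 row, and 15.5% of rows with a symbol stood in such loci. These percentages include rows without counts and were not matched to the members for level, so they do not show that splitting is particular to these families. Every member is therefore given as the row with its symbol, as the sum of all rows of its locus, and as the share of the locus count that the named row held. In 7 members the locus also held a row with another symbol, which never took more than 2.82% of the locus count (*Ccdc97* in the *Hnrnpul1* locus).

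The promoters of the families are shown for 4 members that the results below return to. RefSeq start sites on GRCm38.p6 gave 41 windows of 250 bases upstream of a start for 29 of the 31 members. The 4 shown are *Hnrnpl* (chr7:28810640-28810889, plus strand), *Hnrnpdl* (chr5:100039223-100039472, minus strand), *Hnrnpa1* (chr15:103240147-103240396, plus strand) and *Srsf12* (chr4:33209022-33209271, plus strand), written 5′ to 3′ on the strand of the gene. The windows of *Hnrnpl*, *Hnrnpdl* and *Srsf12* lie inside the GENCODE gene spans given below. These windows are thus upstream of the RefSeq start used, and not of the outermost GENCODE start. Capitals mark matches on either strand to GGGCGG, the GC box, and to CCAAT, the CCAAT box. TATAAA and CCGGAAG, the core of ETS factor sites, were also searched and had no match in these 4 windows.
Hnrnpl: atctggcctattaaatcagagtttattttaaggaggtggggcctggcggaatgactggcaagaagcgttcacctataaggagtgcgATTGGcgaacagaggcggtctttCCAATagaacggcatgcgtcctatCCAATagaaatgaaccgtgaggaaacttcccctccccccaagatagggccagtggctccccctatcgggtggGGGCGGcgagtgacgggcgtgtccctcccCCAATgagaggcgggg
Hnrnpdl: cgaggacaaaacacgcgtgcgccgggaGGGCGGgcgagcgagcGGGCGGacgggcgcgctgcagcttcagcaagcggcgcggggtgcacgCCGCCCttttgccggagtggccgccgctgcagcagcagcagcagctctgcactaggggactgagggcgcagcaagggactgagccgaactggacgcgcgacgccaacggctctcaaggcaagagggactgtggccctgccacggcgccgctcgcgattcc
Hnrnpa1: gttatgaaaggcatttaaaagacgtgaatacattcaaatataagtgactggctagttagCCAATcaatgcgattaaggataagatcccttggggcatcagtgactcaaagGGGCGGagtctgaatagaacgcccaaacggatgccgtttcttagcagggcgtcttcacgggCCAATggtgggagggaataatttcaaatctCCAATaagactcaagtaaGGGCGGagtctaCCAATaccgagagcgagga
Srsf12: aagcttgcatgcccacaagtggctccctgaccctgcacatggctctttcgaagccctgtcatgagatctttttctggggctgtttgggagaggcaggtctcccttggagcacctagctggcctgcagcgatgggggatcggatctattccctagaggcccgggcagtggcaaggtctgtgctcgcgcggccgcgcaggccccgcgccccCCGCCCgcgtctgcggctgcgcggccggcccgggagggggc

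All 4 windows held a GC box, and those of *Hnrnpl* and *Hnrnpa1* also held several CCAAT boxes. Over the 29 members with a window, a GC box was found for 24, a CCAAT box for 16, CCGGAAG for 6 and TATAAA for 3. Counted per window, GGGCGG was in 80.5% of the members' windows and in 32.7% of all 32851 windows, CCAAT in 48.8% and 33.9%, CCGGAAG in 22.0% and 6.91%, and TATAAA in 7.32% and 12.4%. The members' windows were also richer in G and C, with a median of 68.0% compared to 52.4% and a median of 23 CG dinucleotides compared to 6. A match describes the letters of the window and not a bound site.

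Levels can be compared between genes only per length, and here the locus CPM was divided by the length of all annotated exons of the gene in kilobases. On this scale the highest hnRNP genes were *Hnrnpa1*, *Hnrnpab* and *Hnrnpf*, and the highest SR genes were *Srsf5*, *Srsf2* and *Srsf7*. *Hnrnpa1* (chromosome 15, 103240432 to 103246692), an abundant repressor of exon inclusion that shuttles out of the nucleus, had levels of 167, 206 and 192 CPM per kb in *fat-1* and 152.5, 194 and 222 in WT. *Hnrnpab* (chromosome 11, 51600100 to 51606847) had levels of 167, 141.5 and 149 CPM per kb in *fat-1* and 152, 162 and 159 in WT, and *Hnrnpf* (chromosome 6, 117900324 to 117925622), which binds runs of G, had 134, 129 and 126 in *fat-1* and 119, 125 and 134 in WT. The ranges of *Hnrnpa1* and *Hnrnpab* overlapped, so that their order is not beyond the spread between samples, and in each of these genes the ranges of the 2 genotypes overlapped as well.

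*Srsf5* (chromosome 12, 80945504 to 80950507) reached 107, 92.0 and 86.5 CPM per kb in *fat-1* and 95.6, 81.6 and 93.1 in WT. *Srsf2* (chromosome 11, 116849901 to 116853094), a core SR protein of nuclear speckles, had 93.2, 84.4 and 79.3 CPM per kb in *fat-1* and 80.0, 80.5 and 90.5 in WT. *Srsf7* (chromosome 17, 80200080 to 80207307) had 53.8, 52.4 and 49.7 CPM per kb in *fat-1* and 47.3, 47.7 and 52.2 in WT. *Srsf5* and *Srsf2* could not be put in order beyond their spread, while every *Srsf7* value was below all values of both. The other SR members except *Srsf12* had mean levels between 23.1 and 40.0 CPM per kb.

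The lowest members stood far from the rest. *Srsf12* (chromosome 4, 33208991 to 33233340), an SR family member known as a splicing repressor, had counts of 134, 152 and 119 in *fat-1* and 164, 108 and 129 in WT, which is 0.202, 0.225 and 0.182 CPM per kb in *fat-1* and 0.244, 0.151 and 0.199 in WT. It was the only member whose locus level varied by more than 1.5 times over the 6 samples. Among hnRNP genes *Hnrnpr* was lowest, with 3.67, 3.67 and 3.45 CPM per kb in *fat-1* and 3.38, 3.36 and 3.77 in WT, and *Hnrnpll* followed with a mean of 5.59. *Hnrnpr* was the lowest hnRNP gene with either length used here. Both of its lengths are long, 22199 bases for all annotated exons and 21452 for the longest coding transcript, so they are not separate checks. Before division by length its locus level was above that of *Hnrnph3*, with means of 79.8 and 54.8 CPM in *fat-1* and 77.7 and 53.7 CPM in WT.

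**Figure D1:**
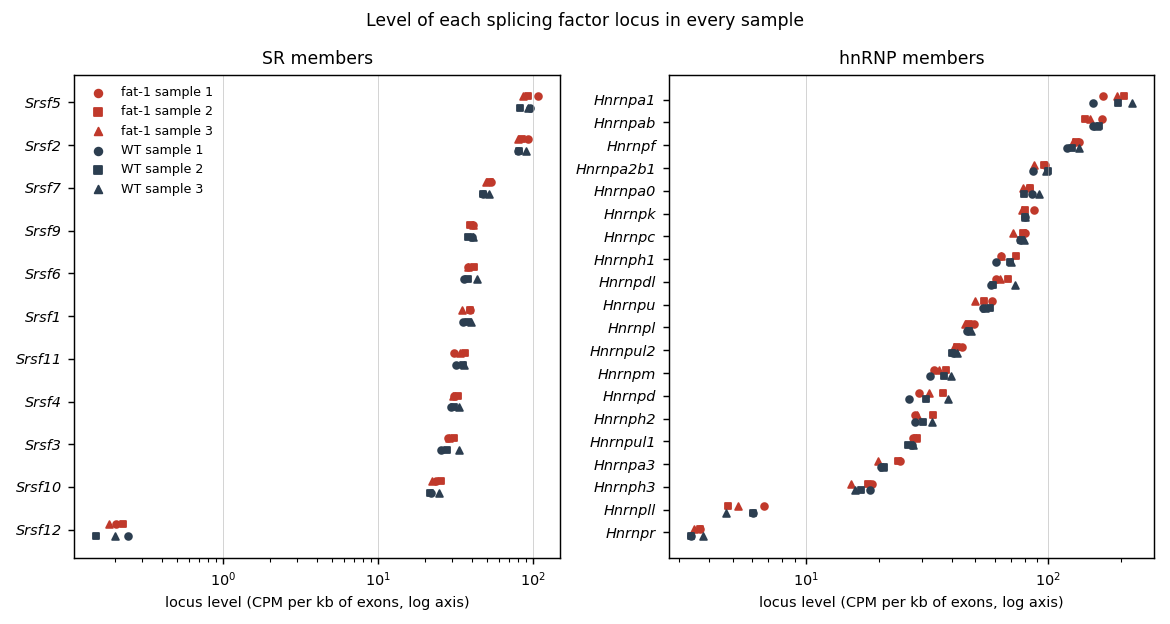
Locus level of each member in CPM per kilobase of annotated exon (log axis), with 1 point for each of the 3 *fat-1* and 3 WT samples. The points of the genotypes lie among each other for every member, and *Srsf12* lies far below the other members.

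Dividing by the longest annotated coding transcript in place of all exons, an alternative chosen after the data were seen, put *Hnrnpa2b1* first with 358 CPM per kb, before *Hnrnpa1* with 311 and *Hnrnpab* with 182. *Srsf5* (236) and *Srsf2* (132) remained the highest SR genes on this scale, with *Srsf11* (92.2) next. *Srsf3*, the smallest SR protein, moved from 29.0 to 87.4 CPM per kb. The order of the members thus depended on the length used, while the comparisons between genotypes do not use a length.

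The main comparison was *fat-1* mice compared to WT mice, which asks what lifelong *n*-3 PUFA made within the body is accompanied by in these cells. On locus sums, 0 of the 31 members reached an unadjusted *p*-value of 0.05 by the quasi-likelihood test of edgeR, beside 1.14% of all 24061 loci. The exact test of edgeR and the Wald test of DESeq2 also gave 0 members, beside 1.06% and 1.49% of loci. After Benjamini–Hochberg adjustment 0 loci (0.0%) passed by the quasi-likelihood test. The log2 fold changes of the members ran from -0.05 (*Hnrnpa0*) to 0.13 (*Hnrnpa3*) with a median of 0.02, compared to a median of 0.00 over all loci, and 19 were above 0 and 12 below. Their standard errors ran from 0.07 to 0.24. The median size of the change, without its sign, was 0.03 for the members and 0.11 over all loci. Every member except *Srsf12* had at least 10103 locus counts in each sample, and the background loci were not matched to the members for level. The values of the genotypes overlapped in all 31 loci, while they did not overlap in 4.15% of all loci.

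*Srsf1* (chromosome 11, 88047373 to 88053755), the founding SR protein and a known oncogene in breast tissue, had locus levels of 222, 223 and 199 CPM in *fat-1* and 200, 217.5 and 226 in WT. *Srsf2* had 276, 250 and 235 CPM in *fat-1* and 237, 238 and 268 in WT, and *Srsf3* (chromosome 17, 29032628 to 29043373) had 222, 245 and 227 in *fat-1* and 199, 219 and 260 in WT. In all 3 genes the samples of the 2 genotypes were interleaved, and the log2 fold changes were 0.00 (SE 0.09), 0.03 (SE 0.10) and 0.03 (SE 0.12). A processed copy of *Srsf3* had 1181 to 1580 counts per sample in a row of its own, so reads of the 2 may have been exchanged.

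*Hnrnpa1* had locus levels of 528, 650 and 606 CPM in *fat-1* and 481, 611 and 700 in WT, and *Hnrnpa2b1* (chromosome 6, 51460932 to 51469894), which also sorts and transports RNA, had 637.5, 631 and 572 in *fat-1* and 571, 658 and 644 in WT. The fold changes on the log2 scale were -0.01 (SE 0.15) and -0.03 (SE 0.09). *Hnrnpk* (chromosome 13, 58391142 to 58403343), which binds C-rich RNA and DNA, had 563, 517 and 505 CPM in *fat-1* and 517, 518 and 518 in WT. *Hnrnpu* (chromosome 1, 178321108 to 178337797), a nuclear scaffold protein, had 679, 628 and 578 CPM in *fat-1* and 626, 668 and 634 in WT. Both differed by less than the spread within *fat-1*, with log2 fold changes of 0.03 (SE 0.07) and -0.03 (SE 0.08). Exons of several members overlap those of genes on the opposite strand. For *Hnrnpu* the overlap with *Cox20* was 804 bases, and for *Srsf2* that with *Mettl23* was 460 bases. *Hnrnpab* and *Hnrnpf*, among the highest per kb, overlapped *Phykpl* over 809 of 2782 bases and *4933440N22Rik* over 410 of 3047 bases. *Srsf4* overlapped *Gm12992* over 1532 of 3561 bases. The use of strand in counting is not given in the sources used here.

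Added over each family, the SR loci held 2123, 2132 and 1980 CPM in *fat-1* and 1950, 1973 and 2184 in WT. The hnRNP loci held 6320, 6403 and 5996 CPM in *fat-1* and 5863, 6285 and 6562 in WT. Both family totals overlapped between the genotypes, with the highest value of each in WT sample 3 and the lowest in WT sample 1.

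**Figure D2:**
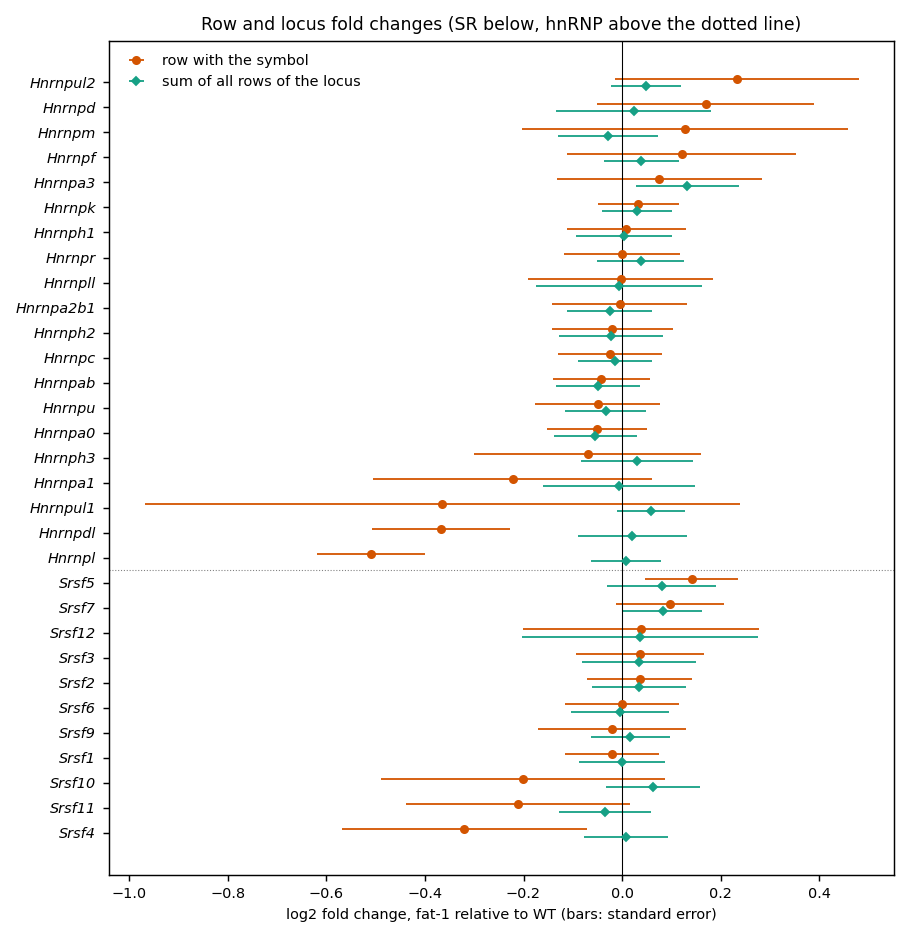
Log2 fold change of *fat-1* compared to WT for each member, for the row with the symbol (circles) and for the sum of the locus (diamonds), with bars of 1 standard error. The locus values lie close to 0 for all members, from -0.05 to 0.13, while the rows of *Hnrnpl* and *Hnrnpdl* lie at -0.51 and -0.37.

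The rows with the symbol gave another picture for *Hnrnpl* and *Hnrnpdl*. By the quasi-likelihood test 2 of the 31 rows reached the unadjusted threshold of 0.05, beside 2.21% of the 30683 rows tested. None of these was higher in *fat-1* (1.07% of all rows) and both were lower (1.14% of all rows), and 0 rows (0.0%) passed after adjustment. DESeq2 gave the same 2 members, beside 3.02% of rows, and the exact test of edgeR gave *Hnrnpl* only, beside 1.98%. The median log2 fold change of the 31 rows was -0.005, compared to 0.00 over all rows. The median size was 0.05 compared to 0.16, again without matching for level. The row values of the genotypes did not overlap in 3 members, *Hnrnpl* and *Hnrnpdl* lower and *Srsf5* higher in *fat-1*, beside 5.26% of all rows (2.57% higher and 2.7% lower).

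*Hnrnpl* (chromosome 7, 28808541 to 28822266, plus strand) encodes a protein that binds CA repeats and either represses or enhances the exons beside them. Its row had 15690, 15989 and 15819 counts in *fat-1* and 20970, 25398 and 22772 in WT, or 75.1 CPM ± 0.689 and 107 CPM ± 7.88 (SD, n = 3 each). The other row of the locus went the opposite way, with 46372, 44325 and 40090 counts in *fat-1* and 37890, 37880 and 35779 in WT. Rows without a symbol, such as this one and that of *Hnrnpdl* below, come without positions. Which exons or introns they cover is thus not known. Whether such a shift reflects isoforms or the placing of transcripts in rows by the assembly was not tested. Every *fat-1* sample was below every WT sample in the row and above every WT sample in the other row. The locus sum was nearly equal, 281 CPM ± 12.7 and 280 CPM ± 4.86 (SD, n = 3 each).

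The log2 fold change of the *Hnrnpl* row was -0.51 (SE 0.11), with an unadjusted *p*-value of 0.00381 and an adjusted *p*-value of 1.0 by the quasi-likelihood test (edgeR). DESeq2 gave an adjusted *p*-value of 0.00226 for the same row, where 0.303% of rows passed, and edgeR's exact test gave an adjusted *p*-value of 1.0. For the locus sum the log2 fold change was 0.01 (SE 0.07). The row held 25.3%, 26.5% and 28.3% of the locus count in *fat-1* and 35.6%, 40.1% and 38.9% in WT, so its share was lower in all 3 *fat-1* samples. The exact permutation test of the shares gave *p* = 0.1, which is the smallest value that 3 samples against 3 allow. On the log2 ratio of the row to the other row the difference was -0.76 (SE 0.20), with an unadjusted *p*-value of 0.0111 and an adjusted *p*-value of 0.998 by limma, where 0.014% of rows passed the adjusted threshold.

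*Hnrnpdl* (chromosome 5, 100033577 to 100039664, minus strand) encodes a relative of AUF1 that binds AU-rich RNA and is known to regulate its own splicing. Its row had 14010, 17853 and 16961 counts in *fat-1* and 19273, 23576 and 21490 in WT, and the other row had 47979, 52281 and 46619 in *fat-1* and 40259, 41144 and 50351 in WT. The row was lower in every *fat-1* sample, while the other row overlapped between the genotypes through WT sample 3. In CPM the row had 77.2 ± 9.11 and 99.6 ± 8.28 (SD, n = 3 each), a log2 fold change of -0.37 (SE 0.14). The unadjusted *p*-value was 0.0407 and the adjusted *p*-value 1.0 by the quasi-likelihood test. This call was lost by edgeR's exact test (unadjusted *p*-value 0.158) and on leaving out any sample except WT sample 1, with unadjusted *p*-values of 0.0508 (without *fat-1* sample 2) to 0.119 (without WT sample 2).

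The share of the *Hnrnpdl* row was 22.6%, 25.5% and 26.7% in *fat-1* and 32.4%, 36.4% and 29.9% in WT, again with every *fat-1* sample below every WT sample. The log2 ratio differed by -0.56 (SE 0.22), with an unadjusted *p*-value of 0.0502 by limma. Its locus sum gave a log2 fold change of 0.02 (SE 0.11). *Hnrnpl* was the single call among the 25 members with other rows in the ratio test, beside 3.48% of the 7120 rows tested (1.98% lower in *fat-1*), and edgeR's test for differential use of rows within a locus gave it an unadjusted *p*-value of 0.22 and called 0 members, beside 2.13% of rows. Shares that did not overlap between the genotypes were found in 2 of 25 members, *Hnrnpl* and *Hnrnpdl*, both lower in *fat-1*, beside 8.02% of all rows tested for the ratio (4.07% lower).

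**Figure D3:**
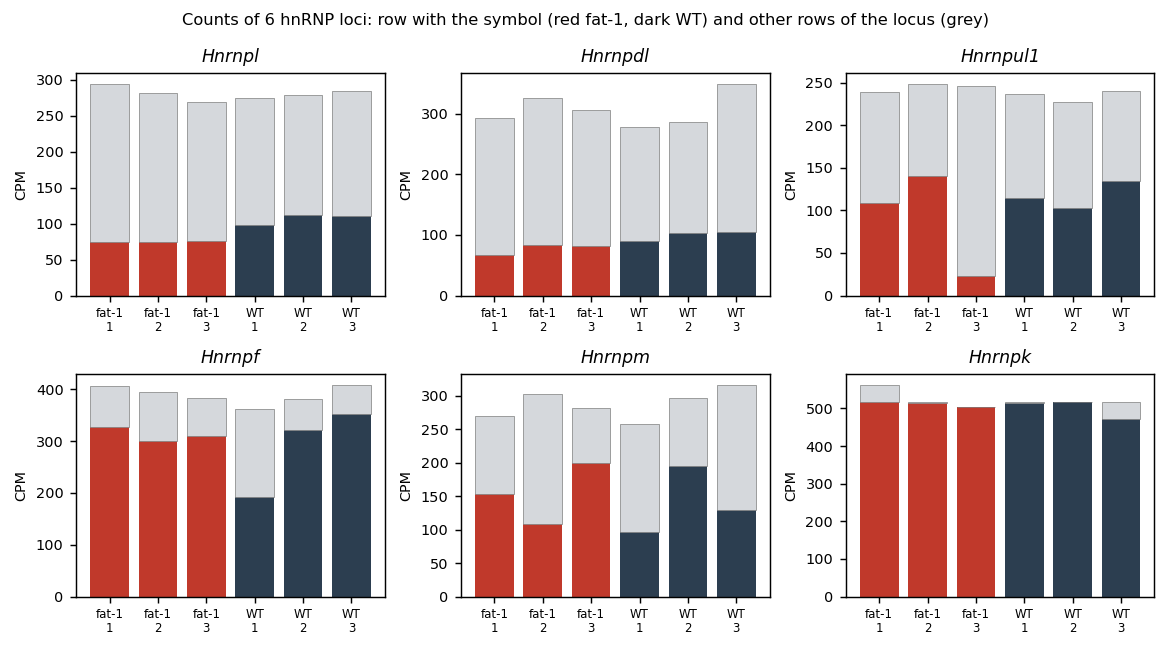
Stacked bars of the level in CPM of the row with the symbol (red in *fat-1*, dark in WT) and of the other rows of the locus (grey) in each of the 6 samples, for *Hnrnpl*, *Hnrnpdl*, *Hnrnpul1*, *Hnrnpf*, *Hnrnpm* and *Hnrnpk*. In *Hnrnpl* the row is lower and the other row higher in all 3 *fat-1* samples, and in *Hnrnpul1* and *Hnrnpf* 1 sample stands apart in both rows.

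*Srsf5*, which controls exon choice in several mRNAs, was the member whose row was higher in every *fat-1* sample, with 254, 261.5 and 270 CPM compared to 249, 222 and 241 in WT. The gap between the genotypes was small, the log2 fold change was 0.14 (SE 0.09), and the unadjusted *p*-value was 0.187 by the quasi-likelihood test. On the locus sum the samples overlapped, with 428, 367 and 345 CPM in *fat-1* and 381, 325 and 371 in WT.

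Among the 25 members with other rows, the genotype difference of the named row and that of the other rows had opposite signs in 17, beside 65.4% of all rows tested for the ratio, so the families were near the background in this. The named row held more than 50% of the locus on average in 15 and less in 10, and the median share was 58.3%, compared to 46.1% over all rows tested for the ratio. The coefficient of variation over the 6 samples had a median of 16.4% for the rows of these 25 members and 5.95% for their locus sums. Over all rows tested it was 26.04% and over all loci 21.2%, and these were not matched to the members for level. The highest row value was more than 1.5 times the lowest in 14 of the 31 members, and the same held for 1 of the 31 locus sums.

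Several of these shifts belonged to single samples rather than to a genotype. *Hnrnpul1*, a relative of *Hnrnpu*, had a row level of 109, 140 and 23.3 CPM in *fat-1* and 114, 103 and 134 in WT, with *fat-1* sample 3 far below the others. That sample's share was 9.49%, compared to 45.2% to 56.4% in the other 5 samples, while its locus level of 246 CPM lay within the 227 to 248.5 CPM of the others. The log2 fold change of the row was -0.37 (SE 0.60) with this sample and 0.09 (SE 0.19) without it.

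*Hnrnpf* also had 1 sample with a low share, WT sample 1, where the row held 52.9% of the locus compared to 76.3% to 86.1% in the other samples. Unlike in *Hnrnpul1*, the locus level of that sample was also the lowest, 363 CPM compared to 382 to 409. *Srsf11* had a share of 83.8% in WT sample 3 and 54.0% to 61.0% elsewhere. In *Hnrnpk* the other row held 9856 counts in *fat-1* sample 1 and 9471 in WT sample 3, and 225 to 275 in the other 4 samples, so 1 sample of each genotype carried it. The shares of *Hnrnpm* (35.8% to 70.7%), *Hnrnpa1* (47.3% to 75.8%) and *Srsf4* (24.4% to 51.1%) were spread over both genotypes. The range of the share over the 6 samples exceeded 20 percentage points in 6 of the 25 members, and its median was 13.1 points compared to 14.2 over all rows tested for the ratio.

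**Figure D4:**
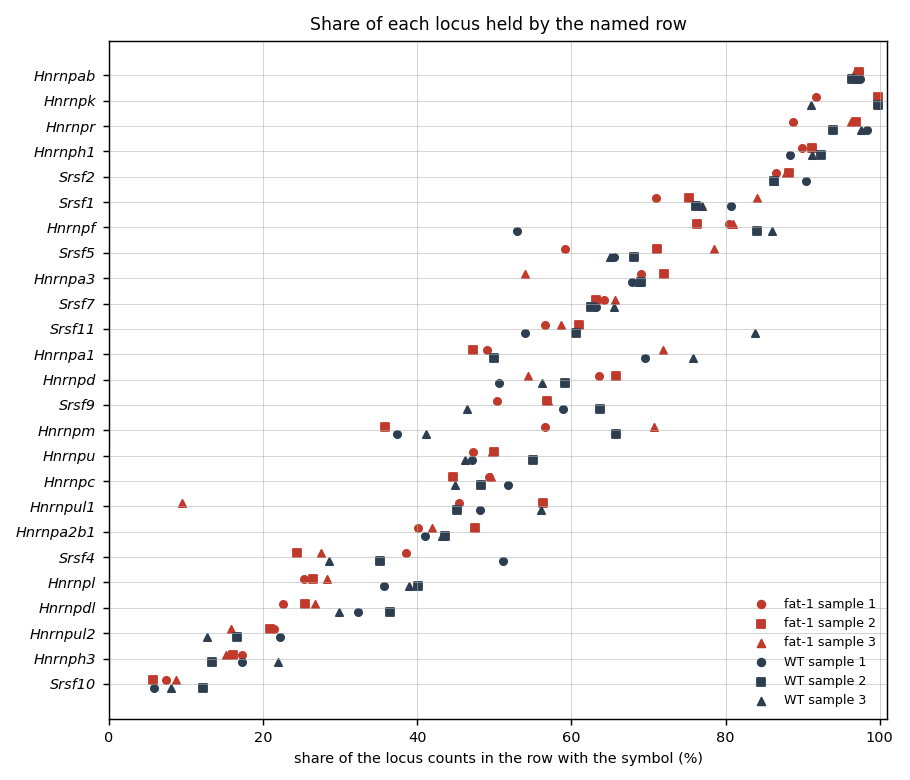
Share of the locus count held by the row with the symbol, in percent, for the 25 members with other rows and each of the 6 samples. The shares of *Hnrnpl* and *Hnrnpdl* are lower in the 3 *fat-1* samples than in the 3 WT samples, and single samples stand apart in *Hnrnpul1*, *Hnrnpf* and *Srsf11*.

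The samples differed in their epithelial content, and this cut across the genotypes. The mean of the log2(CPM + 1) values of luminal and basal markers was 6.42, 4.67 and 5.69 in *fat-1* and 6.52, 5.71 and 4.74 in WT. This put the samples into 3 pairs of 1 *fat-1* and 1 WT sample each, at a low, a middle and a high level. In the low pair, *fat-1* sample 2 and WT sample 3, the summed immune markers were at 2677 and 2742 CPM, compared to 1187 and 1220 CPM in the high pair, *fat-1* sample 1 and WT sample 1. In bulk samples, fewer cells of a type and less RNA per cell cannot be told apart. Since the samples formed pairs, correlations over the 6 samples are not given, and a count of genes in order over the pairs, chosen after the values were seen, is given in their place.

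In 13 of the 31 members both samples of the low pair had a higher locus level than both of the high pair, beside 30.9% of all loci, and in 3 both were lower, beside 31.6%. The levels fell in order over the low, middle and high pairs in 5 members, *Hnrnpd*, *Hnrnpm*, *Hnrnpa1*, *Hnrnph2* and *Srsf11*, beside 7.31% of loci, and rose in order in 1, *Hnrnpll*, beside 11.3%. *Hnrnpd*, which encodes AUF1 and promotes decay of AU-rich mRNAs, had 269 and 283 CPM in the low pair, 236 and 230 in the middle pair and 215 and 196 in the high pair, in each case *fat-1* first. *Hnrnpa1* had 650 and 700 CPM in the low pair, 606 and 611 in the middle pair and 528 and 481 in the high pair. The low pair was 1.345 and 1.338 times the high pair in these genes. Both were picked for being in order over the same pairs, so these ratios cannot be weighed against the differences between the genotypes.

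*Hnrnpll*, known for directing the splicing of *Ptprc* in lymphocytes, went the other way, with 55.9 and 54.9 CPM in the low pair, 61.2 and 70.5 in the middle pair and 78.4 and 71.0 in the high pair. Its level was thus lowest in the 2 samples with the most immune marker RNA. *Hnrnpl* did not follow the pairs, with locus levels of 281 and 285 CPM in the low pair and 294 and 275 in the high pair. Over the low, middle and high pairs its row stood at 74.7, 75.9 and 74.7 CPM in *fat-1* and at 111, 112 and 97.9 CPM in WT. The row was lower in *fat-1* within each pair, which any pairing would give, since every *fat-1* value was below every WT value. With the marker mean as a covariate in the quasi-likelihood fit, the log2 fold change of the row was -0.51 (SE 0.10), and 2 rows and 0 loci of the 31 members reached the unadjusted threshold, as without it.

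**Figure D5:**
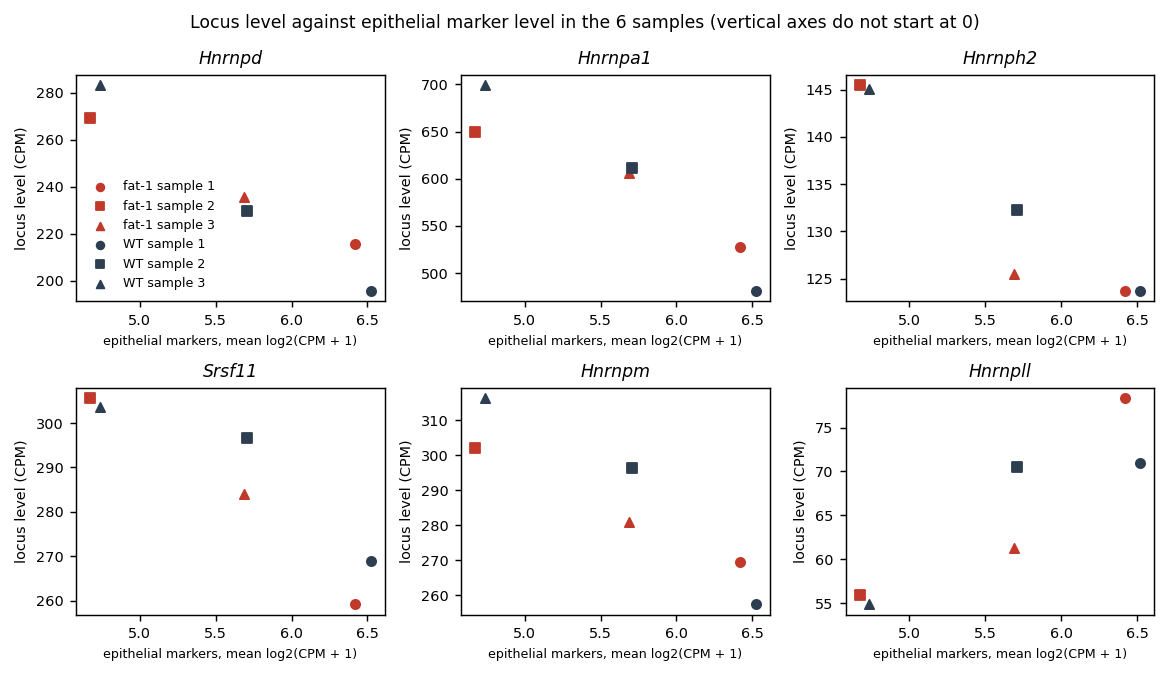
Locus level in CPM against the mean log2(CPM + 1) of luminal and basal markers for the 6 members whose levels were in order over the 3 sample pairs, with 1 point for each sample and vertical axes that do not start at 0. The levels of 5 members fall and those of *Hnrnpll* rise from the low pair near 4.7 to the high pair near 6.5.

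The other genes of the splicing and decay pathways also gave no calls on locus sums. Of 103 listed genes, 98 were tested, and 0 were higher and 0 lower at an unadjusted *p*-value of 0.05, beside 0.478% and 0.661% of all loci. This covered 8 kinases of SR proteins, 3 nuclear import receptors, 14 SR-related proteins and 15 hnRNP proteins with other symbols. It also covered 30 core spliceosome proteins, 10 NMD factors and 18 further splicing regulators, some of them tissue-restricted. Some of these locus sums also held rows of other named genes, such as *Fbxw9* and *Trir* in the *Tnpo2* locus and *Snx14* in the *Syncrip* locus. The part that such rows took of the sums is not given here, so those results are for the loci. *Smg1*, the kinase of the NMD factor UPF1, had the smallest unadjusted *p*-value, 0.115 by the quasi-likelihood test, with 646, 628 and 580 CPM in *fat-1* and 557, 565 and 574 in WT. Among the 98 genes, the values of the genotypes did not overlap in *Smg1*, *Srrm2* and *U2af2*, all higher in *fat-1*, beside 4.15% of all loci. *Clk1*, a kinase of SR proteins, had 277, 282 and 230 CPM in *fat-1* and 254, 245 and 256 in WT. *Esrp1*, a splicing regulator specific to epithelial cells, had 91.0, 17.1 and 38.1 CPM in *fat-1* and 70.4, 40.2 and 19.1 in WT, which is the order of the 3 sample pairs and covers a far wider range than any member's locus level.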

How the data were processed

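RNA was sequenced from 3 *fat-1* and 3 WT pooled samples, grouped by the genotype and number in the sample labels. The authors mapped paired-end reads to GRCm38 with HISAT2, assembled transcripts with StringTie and deposited estimated counts per assembled row, as whole numbers without normalization. Their versions, annotation and strand setting are not given in the sources used here. Of the 61880 rows, 44496 had counts, and rows with the same locus number were added, giving 53912 loci. The number of value columns without a sample was 0.

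Members were taken by symbol, all 31 passed filterByExpr, and members and gene lists were chosen with earlier results of these data known. Rows (30683) and loci (24061) were tested in R 4.3.3 with edgeR 4.0.16 (quasi-likelihood, newer fit, TMM, genotype only, Benjamini–Hochberg adjustment over all). The 2 fits were normalized separately. Ratios of the symbol row to the other rows, each with 0.5 added and a mean of at least 10 counts, were tested with limma 3.58.1 (7120 rows). DESeq2 1.42.0, edgeR's exact test, other filters and scalings, a replicate block and leaving out each sample were alternatives. Standard errors of the count fits were taken as the log2 fold change over the root of the F statistic. Exact permutation tests were two-sided. The tests were tried on simulated counts. Positions and lengths are from GENCODE vM21 (GRCm38), and promoters from RefSeq (GRCm38.p6). The text gives sample values of members called at an unadjusted 0.05, of the 3 highest and the lowest of each family per kb, and of 7 widely studied members. Other members and genes with values were chosen after these were seen. A planned correlation with marker levels was replaced by counts over sample pairs. Plots used matplotlib 3.10.9.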

Additional observations from a re-analysis of the deposited data

How the results depend on the processing

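The count of locus sums called among the members was 0 under every alternative run: DESeq2 or its size factors, edgeR's exact test, the older fit, no filter, rows with another symbol left out, a replicate block, the epithelial marker mean as a covariate (added after the data were seen), and leaving out each sample (0 to 0). The count of rows called was 2 under the same alternatives, apart from the one on other symbols, which was not run for rows, except with edgeR's exact test, where it was 1 (*Hnrnpl*), and on leaving out each sample, where it was 1 to 2. The count of ratios called was 1, also on leaving out each sample (1 to 1), except with edgeR's test of row use within loci, where it was 0. The cause of these differences was not tested. The *Hnrnpl* row kept its direction and an unadjusted *p*-value at or under 0.05 under all 13 alternatives, with log2 fold changes from -0.57 to -0.48, and *Hnrnpdl* kept both under 7 of 13. The labels number the replicates 1 to 3 in both genotypes, and deviations of same-numbered samples from their genotype means correlated at 0.51, -0.10 and 0.07. The deviations also carry the differences in epithelial content, so they cannot tell whether same-numbered samples were handled together. With the replicate block 2 rows, 0 loci and 1 ratio were called. Each library held at least 204539059 counts, and *Srsf12* rested on 108 to 164 counts per sample. The effect of depth on the calls was not tested.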
